A study of Mus musculus with 7 samples.

Results

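The TAM receptors Axl, Mertk and Tyro3 and their bridging ligands Gas6 and Pros1 were examined in conventional type 1 dendritic cells (cDC1) of the mouse lung. Members were the probe sets, each built for 1 Entrez gene, whose symbol in the array's annotation was one of these names, and all 5 were found among 25428 probe sets. Expression was read on 7 Mouse Gene 2.0 ST arrays of Affymetrix, and all mice were C57/BL6. Healthy controls (nLung) gave 4 arrays and mice bearing late KP tumors in the lung, written KP(l), gave 3. KP(l) mice had received 100000 cells of the KP line in the tail vein, and their lungs were taken on day 28. The KP line was derived from lung tumors of mice with an activated K-ras allele and no p53, so the tumors are a transplanted line and not tumors that arose in the host. The cDC1 of 1 array came from the pooled lungs of 2 to 3 mice and were sorted, after a CD11c bead column, by MHC class II, CD103, CD11c, CD11b and SiglecF. Values are RMA expression on the log2 scale, and linear expression is 2 to the power of that value. In such bulk samples fewer cells of a type and less RNA per cell cannot be told apart.

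AXL, MERTK and TYRO3 are receptor tyrosine kinases that do not touch a dying cell directly. GAS6 and protein S, the product of Pros1, bind phosphatidylserine (PtdSer) on the dying cell through a domain of gamma-carboxylated glutamates, which needs vitamin K, and bind the receptor with their other end. Engaged receptors promote engulfment and, in dendritic cells, work with the type I interferon receptor to induce SOCS proteins, which damp inflammatory signalling.

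Upper quartiles of all values were 5.11 to 5.17 in replicates 1 and 2 of both groups and 5.22 to 5.28 in the other 3 arrays, so differences are also given within each of these 2 sets of arrays. Pearson's r across genes, which are not independent replicates, ranged from 0.947 to 0.978 within groups (9 pairs) and from 0.942 to 0.976 across groups (12 pairs). The summed linear expression of 12 cDC1 markers, among them Xcr1, Clec9a and Batf3, was 11348 to 13426 in nLung and 10457 to 13259 in KP(l), and no marker was at 0. The sum does not show single markers, of which 9 had a log2 difference, KP(l) minus nLung, below 0 and 3 above. At an unadjusted limma p under 0.05, Cd207 (-1.77) and Clec9a (-0.33) were lower in KP(l) and Itgae (0.36) was higher. That was 25% of the list, against 4.86% of all probe sets. The groups did not overlap for Cd207 and Itgae, 16.7% against 3.84%. Markers of other cells were uneven. The summed level of 13 of 15 listed alveolar macrophage markers was 1794 in nLung replicate 1 and 629 to 810 in the other nLung arrays, and it was 2263, 1683 and 658 in KP(l) replicates 1 to 3. The summed level of 7 neutrophil markers was 1580 in KP(l) replicate 1 and 54.1 to 72.1 in the other 6 arrays.

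The promoters of Axl and Pros1 are shown because Axl is the receptor whose KP(l) arrays lay above all but 1 of the nLung arrays and Pros1 is the member whose groups did not overlap. Both are from RefSeq on build GRCm38.p6 and run 5′ to 3′ from 250 bases before to 50 bases after the annotated start. Axl lies at chr7:25788684-25788983 on the minus strand and Pros1 at chr16:62854057-62854356 on the plus strand. Capitals mark matches, on either strand, to the GC box GGGCGG and to the interferon gamma-activated site (GAS) TTCNNNGAA.
Axl: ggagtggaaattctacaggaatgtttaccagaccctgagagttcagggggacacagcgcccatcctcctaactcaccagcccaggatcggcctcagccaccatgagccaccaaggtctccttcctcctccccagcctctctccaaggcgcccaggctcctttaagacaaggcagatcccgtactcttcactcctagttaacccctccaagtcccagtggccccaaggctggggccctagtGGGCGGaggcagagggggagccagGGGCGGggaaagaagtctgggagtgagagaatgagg
Pros1: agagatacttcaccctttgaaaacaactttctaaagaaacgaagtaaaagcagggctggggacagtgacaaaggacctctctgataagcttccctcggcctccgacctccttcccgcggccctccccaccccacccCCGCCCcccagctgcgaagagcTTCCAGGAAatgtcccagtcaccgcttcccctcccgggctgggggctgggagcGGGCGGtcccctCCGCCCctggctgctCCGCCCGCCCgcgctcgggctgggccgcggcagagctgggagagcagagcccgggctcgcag
Both windows held GC boxes, 2 in Axl, whose first bases lie at -10 and 14, counted from 0 at the start, and 5 in Pros1, at -114, -39, -27, -12 and -8, of which those at -12 and -8 overlap. Pros1 also held 1 match to GAS, from -92 to -84. Among the 32851 promoters of the same length 35.7% held a GC box and 8.3% a GAS match. Neither window held the AP-1 letters TGANTCA (7.81% of all promoters), the interferon-stimulated response element, GAAA and GAAA with any 2 bases between (3.44%), or the TATA box TATAAA (13.6%). The promoters of Mertk, Tyro3 and Gas6 held 4, 6 and 4 GC boxes, overlapping ones in Tyro3 included, and no match to the other 4 motifs. GC content of the windows was 60.3% for Axl, 66.0% for Mertk, 73.3% for Tyro3, 58.3% for Gas6 and 66.7% for Pros1, with a median of 52.7% over all promoters. These matches describe the letters only.

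To ask whether the TAM axis differed between cDC1 of control and tumor-bearing lungs, limma was run on the 2 groups over all probe sets. With thresholds of 0.05 for the adjusted p and 2 for the fold change, 0 of the 5 members were called, as were 0 of all 25428 probe sets (0%), where the smallest adjusted p was 0.502. SAM, written anew after the study's methods and not the study's own run, called 0 members and 0 probe sets, with a lowest q of 0.152. At an unadjusted p under 0.05, 1 member, Pros1, was lower in KP(l) and 0 were higher, beside 1236 of all probe sets (4.86%), of which 2.24% were lower and 2.62% higher. Pros1 was also the only member of the 5 whose groups did not overlap, against 3.84% of all probe sets, 1.72% with KP(l) lower and 2.12% with KP(l) higher. Axl and Mertk had positive differences, Pros1 a negative one, and Tyro3 and Gas6 differences near 0. Mean log2 expression over the 7 arrays was 8.07 for Axl, 5.05 for Pros1, 3.72 for Mertk, 3.56 for Gas6 and 2.81 for Tyro3. The median of such means over all probe sets was 3.54. Mertk and Gas6 thus lay near that median and Tyro3 below it, and whether they stood above background was not tested. An exact two-sided permutation test of single genes over 7 arrays can give no p below 0.0286.

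**Figure D1:**
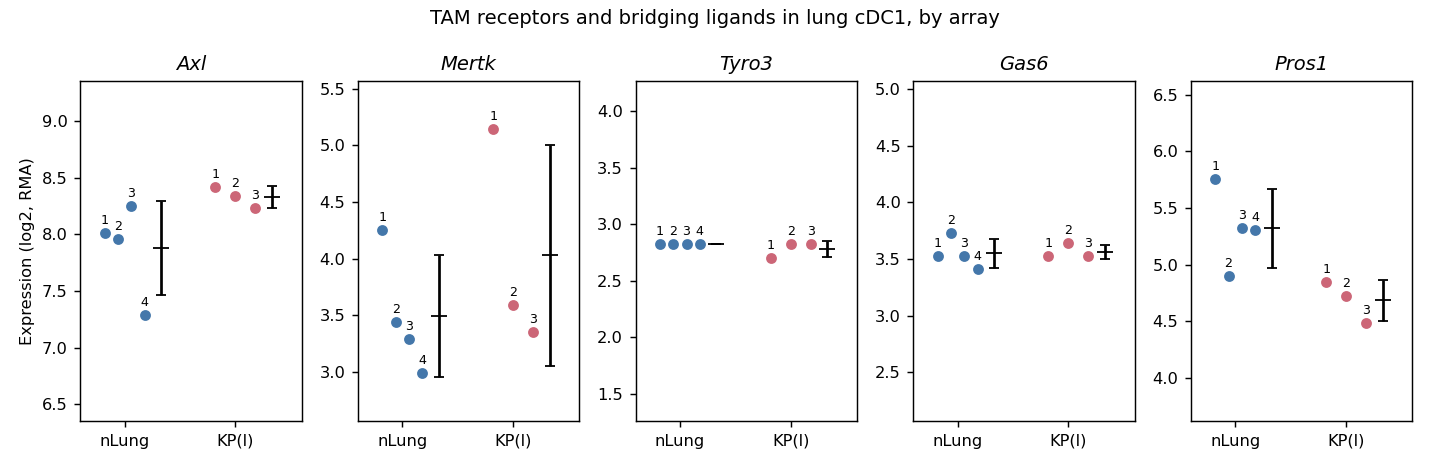
Expression (log2, RMA) of each member in the 4 nLung arrays (blue) and 3 KP(l) arrays (red), numbered by replicate, with the group mean and SD in black. The panels span the same height on the log2 scale but are centred on different levels. Only Pros1 parts the groups, with KP(l) at 4.48 to 4.85 below nLung at 4.90 to 5.76.

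Axl encodes the receptor that binds GAS6 and that interferon is known to raise in mouse dendritic cells. Its log2 expression was 8.01, 7.96, 8.25 and 7.29 in nLung replicates 1 to 4 and 8.42, 8.34 and 8.23 in KP(l) replicates 1 to 3. All KP(l) arrays lay in a narrow band at the top, and 1 nLung array, replicate 3, reached into it, above KP(l) replicate 3, while nLung replicate 4 was the lowest. In linear expression Axl stood at 242 ± 61.8 in nLung (SD, n = 4) against 322 ± 20.8 in KP(l) (SD, n = 3). KP(l) minus nLung was 0.45 on the log2 scale (standard error, SE, 0.23, limma adjusted p = 0.912), a fold of 1.37 with a 95% interval of 0.941 to 1.98. In the exact permutation test of single genes the unadjusted p was 0.0857 for Axl. The Axl difference was 0.39 for replicates 1 and 2 and 0.46 for the remaining 3 arrays. It depended on nLung replicate 4, the low array, for part of its size, since it was 0.25 without it, and without nLung replicate 3 it was 0.57 with an unadjusted limma p of 0.0420. Without nLung replicate 1 and KP(l) replicate 1, the Axl difference was again 0.45, with an unadjusted limma p of 0.222. These were the arrays of each group with the most alveolar macrophage signal. KP(l) replicate 2, which was kept, had an alveolar macrophage sum of 1683, against 629 to 810 in the kept nLung arrays. The part of these cells in the Axl values was not tested.

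Mertk encodes the TAM receptor best known from macrophages and the retinal pigment epithelium, where it serves the clearance of dying cells and shed membranes. Its log2 expression was 4.25, 3.44, 3.29 and 2.99 in nLung replicates 1 to 4 and 5.14, 3.59 and 3.35 in KP(l) replicates 1 to 3. KP(l) replicate 1 was the highest of all arrays and nLung replicate 1 the next, and the other 5 arrays of both groups were mixed. Linear expression was 11.9 ± 4.93 in nLung (SD, n = 4) against 19.2 ± 14.0 in KP(l) (SD, n = 3). The log2 fold change was 0.54 (SE 0.50, limma adjusted p = 0.918), a fold of 1.45 with a 95% interval of 0.635 to 3.31, and the exact permutation p was 0.429. The difference rested on 1 array, since without KP(l) replicate 1 it was -0.02. Within replicates 1 and 2 it was 0.52, among the other 3 arrays 0.21, and without both replicates 1 it was 0.23.

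Beside Mertk, the 2 arrays highest for it were also those with the highest sum of all measured alveolar macrophage markers. Of the 13 measured alveolar macrophage markers, 11 were highest in replicate 1 among the nLung arrays and 9 were highest in replicate 1 among the KP(l) arrays, and 8 reached their highest value of all arrays in KP(l) replicate 1. For interstitial macrophages, which carry Mertk in the mouse, 10 of 11 measured markers were highest of all arrays in KP(l) replicate 1, and their summed linear level was 2749, 2116 and 1366 in KP(l) replicates 1 to 3 and 1588 to 1965 in nLung. Most of that sum was Cd68, at 1150 to 1737 per array, and without it the sum was 1195, 571 and 216 in KP(l) and 191 to 308 in nLung. Without Plin2, the highest alveolar macrophage marker, that list summed to 1248 in nLung replicate 1 and 121 to 302 in the other nLung arrays. In KP(l) replicates 1 to 3 it then summed to 1767, 1327 and 120.4, so that KP(l) replicate 2 lay above nLung replicate 1. The summed neutrophil markers were also highest in KP(l) replicate 1, as given above. Mertk in KP(l) replicate 2, where the alveolar macrophage sum was 1683, lay at 3.59, between the nLung values. The part of these cells in the Mertk values was not tested.

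**Figure D2:**
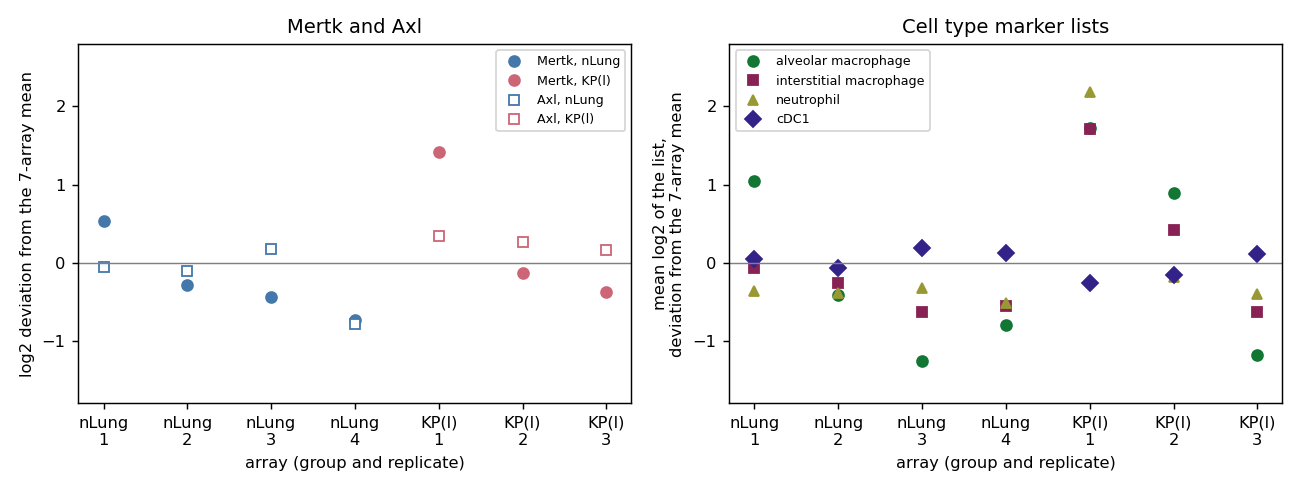
Left, Mertk (filled circles) and Axl (open squares) in each array as the log2 deviation from their own mean over 7 arrays. Right, the mean log2 expression of the markers of 4 cell types in the same arrays, as the deviation from the mean over 7 arrays. Mertk and the mean of the alveolar macrophage markers were highest in replicate 1 of each group, while the mean of the cDC1 markers varied least of the 4 lists.

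Tyro3 encodes the third TAM receptor, studied mainly in the nervous system and in dendritic cells of type 2 responses. Its log2 value was 2.82 on 6 of the 7 arrays and 2.70 on KP(l) replicate 1. The nLung arrays therefore had no spread, with a linear expression of 7.08 on each, and KP(l) stood at 6.89 ± 0.324 (SD, n = 3). The log2 fold change was -0.04 (SE 0.07, limma adjusted p = 0.947), a fold of 0.973 with a 95% interval of 0.861 to 1.10. The exact permutation p was 0.429. Of all probe sets, 3522 (13.9%) had the same value on 4 or more arrays, and for such probe sets the spread between arrays does not show the error of the measurement.

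Gas6 encodes the ligand that binds all TAM receptors. Its log2 expression was 3.53, 3.73, 3.53 and 3.41 in nLung replicates 1 to 4 and 3.53, 3.64 and 3.53 in KP(l) replicates 1 to 3. The groups lay within each other, and 4 arrays, of both groups, had the same value. Linear expression was 11.8 ± 1.08 in nLung (SD, n = 4) against 11.8 ± 0.514 in KP(l) (SD, n = 3). The log2 fold change was 0.02 (SE 0.10, limma adjusted p = 0.989), a fold of 1.01 with a 95% interval of 0.858 to 1.19, and the exact permutation p was 0.886. The sign of this difference is not settled, since it was -0.0093 after a further quantile normalization and -0.0019 with arrays centred on their median.

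Pros1 encodes protein S, which binds MERTK and TYRO3 and is also an anticoagulant of plasma. Its log2 expression was 5.76, 4.90, 5.33 and 5.30 in nLung replicates 1 to 4 and 4.85, 4.72 and 4.48 in KP(l) replicates 1 to 3. The 3 KP(l) arrays were all lower than the lowest nLung array, with a gap of 0.06 between nLung replicate 2 and KP(l) replicate 1. Linear expression was 40.9 ± 9.94 in nLung (SD, n = 4) against 25.8 ± 3.23 in KP(l) (SD, n = 3). The log2 fold change was -0.64 (SE 0.21), a fold of 0.643 with a 95% interval of 0.457 to 0.905, or 1.56-fold less in KP(l). The unadjusted p was 0.0188 and the adjusted p 0.912 in limma, the q of SAM was 0.552, and the exact permutation p was 0.0571. The difference therefore did not pass over all probe sets.

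Pros1 was lower in KP(l) within both sets of arrays, with -0.55 on the log2 scale for replicates 1 and 2 and -0.83 for the remaining 3 arrays. With 1 array left out the log2 fold change was -0.78 to -0.49, and its unadjusted limma p rose to 0.0684 without KP(l) replicate 3. Pros1 was highest in replicate 1 of each group, the arrays with the most alveolar macrophage signal, and without both arrays the log2 fold change was -0.57 with an unadjusted limma p of 0.0303. The summed linear level of 7 epithelial and tumor markers was 879 in nLung replicate 1, 269 to 354 in the other nLung arrays and 201 to 297 in KP(l). Without Sftpc, the highest of these markers, nLung replicate 1 did not stand out. The sum was then 218 in that array, 218 to 235 in the other nLung arrays and 177 to 223 in KP(l). Like Pros1, the sum of 6 endothelial markers parted the groups, with 56.1 to 65.2 in nLung and 51.7 to 54.2 in KP(l), as did that of 6 of 7 listed monocyte markers, with 3072 to 3322 and 2669 to 2724. Both separations were lost without the highest marker of the list. Without Cdh5 the endothelial sum was 34.4 to 41.1 in nLung and 33.8 to 38.0 in KP(l). Without Ccr2 the monocyte sum was 986 to 1168 in nLung and 643 to 1080 in KP(l). The part of these cells in the Pros1 values was not tested. Timd4, the PtdSer receptor the study follows, differed by -2.08 on the log2 scale (SE 0.29), from 606 ± 196 (SD, n = 4) to 140.1 ± 30.9 (SD, n = 3) in linear expression. Every KP(l) array was below every nLung array for Timd4. Its unadjusted limma p was 0.000249 and its exact permutation p 0.0286, the lowest that 7 arrays allow. The limma adjusted p of 0.606 and the SAM q of 0.152 were short of the thresholds.

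**Figure D3:**
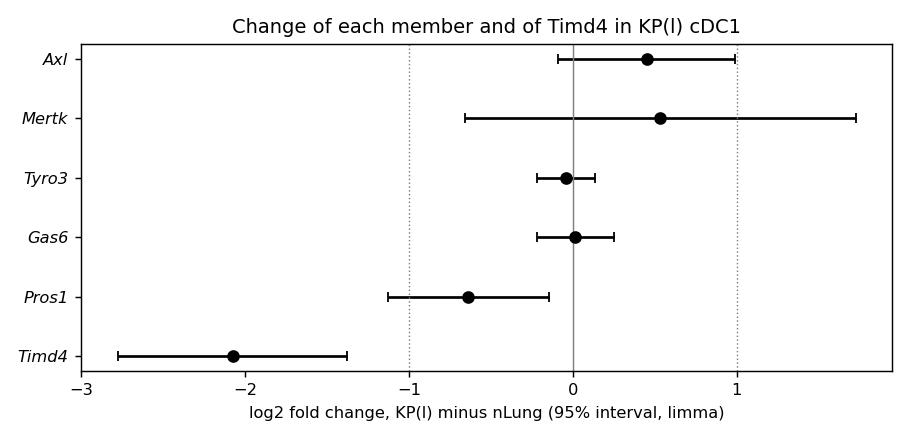
Log2 fold change of KP(l) minus nLung for the 5 members and Timd4, with 95% intervals from limma. Dotted lines mark a fold change of 2. The intervals of Axl, Mertk, Tyro3 and Gas6 include 0, and those of Tyro3 and Gas6 are the narrowest, from -0.22 to 0.14 and from -0.22 to 0.25. Tyro3 had the same value on 6 of the 7 arrays and Gas6 on 4, so these widths do not show the error of the measurement.

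The members also varied by different amounts over the 7 arrays, with a range on the log2 scale of 2.15 for Mertk, 1.27 for Pros1, 1.13 for Axl, 0.312 for Gas6 and 0.119 for Tyro3. The genes whose pattern over the 7 arrays was most like each member were taken by the mean absolute difference between the deviations of both genes from their own means. For Axl these were Rnf186 at 0.0602, Fbxw7 at 0.0974 and Ltbp3 at 0.105 log2 units. For Mertk they were Slco2a1, a prostaglandin transporter, at 0.156, Tgm2, a transglutaminase that macrophages carry, at 0.166, and Exo5 at 0.168. Pros1 was nearest to Vmn1r43 at 0.121, Crybg1 at 0.129 and Eif2ak2, which encodes the double-stranded RNA kinase PKR, at 0.132. Tyro3 was nearest to Olfr318, Hip1r and E530011L22Rik, at 0.0044 to 0.0093, and Gas6 to Phf21b, Mettl24 and Magix, at 0.018 to 0.022, both over ranges that were small to begin with. These likenesses describe 7 arrays.

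The genes around the TAM axis were grouped by role, and 53 of 57 listed genes other than the members were measured. Of these, 0 were called (0% of all probe sets), 3 were higher and 1 was lower at an unadjusted p under 0.05, 7.55% against 4.86% of all probe sets. Groups did not overlap for 3 of the 53, 2 with KP(l) higher and 1 lower, 5.66% against 3.84%. The median log2 fold change was -0.02 over the 53 genes, 25 above and 28 below 0, and 0.02 over all probe sets. Both shares lay near the background.

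Nearest to the ligands, the 3 other genes for TAM ligands had differences from -0.04 to 0.07, with 0 past an unadjusted p of 0.05, and Lgals3, the galectin that can bind MERTK, was the one with the highest mean (0.07, standard error 0.21). The 3 genes that serve gamma-carboxylation, the vitamin K step that GAS6 and protein S need, had a median of 0.60 and 0 past an unadjusted p of 0.05. That median is Vkorc1, the main vitamin K epoxide reductase, which measured 7.93 in KP(l) replicate 2, while the other KP(l) arrays, at 5.25 and 5.48, lay within the nLung range of 4.89 to 6.16. Its relative Vkorc1l1 differed by 0.72 (SE 0.43, limma adjusted p = 0.912), or by 0.35 without KP(l) replicate 2 and 1.20 without KP(l) replicate 1 (limma unadjusted p = 0.0097). The 5 genes for receptor shedding had a median of -0.26 with 4 below 0. Among these is Timp3, at -0.53 (SE 0.51), an inhibitor of sheddases, so the shared sign is not a single direction of shedding. Adam17, which encodes a sheddase of MERTK, stood at -0.29 (SE 0.21), or at -0.09 without KP(l) replicate 3. With the array set as a block Adam17 was -0.37 with a limma unadjusted p of 0.0136. None of these 11 genes parted the groups.

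Downstream of the receptors, the 9 kinase signalling genes had a median of 0.06, 7 above and 2 below 0, and the ubiquitin ligase Cbl, at -0.42 (SE 0.21, limma adjusted p = 0.912), lay lowest, though at -0.20 without KP(l) replicate 1. The 8 of 9 listed engulfment genes that were measured had a median of -0.04, with Rac1, the GTPase that drives the phagocytic cup, at 0.11 (SE 0.17). All 5 measured genes for PtdSer exposure, of 6 listed, had negative differences, between -0.35 and -0.02 with a median of -0.12, and 0 of the 5 passed an unadjusted p of 0.05. The list holds genes that expose PtdSer and genes that return it to the inner leaflet, so the shared sign is not a single direction. Tmem30a, the subunit that flippases need to return PtdSer to the inner leaflet, stood at -0.24 (SE 0.35), but at -0.0009 without nLung replicate 4, at -0.09 without KP(l) replicate 1, and at -0.50 and -0.43 without nLung replicate 2 and KP(l) replicate 3.

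The interferon receptor and SOCS arm, through which TAM receptors are known to damp signalling, held 10 measured genes of 11 listed, with 2 higher at an unadjusted p under 0.05, against 2.62% of all probe sets, and 0 lower. Their median was 0.03, with 6 above and 4 below 0. Socs1, an inhibitor of JAK kinases, measured 4.95, 4.21, 4.78 and 4.61 on the log2 scale in nLung replicates 1 to 4 and 6.06, 6.08 and 6.09 in KP(l) replicates 1 to 3. The 3 KP(l) arrays were almost equal and stood above every nLung array. The log2 fold change of Socs1 was 1.44 (SE 0.18, limma unadjusted p = 0.000108 and adjusted p = 0.502). Ifnar1, the receptor chain that AXL is known to work with, was 7.33, 7.55, 7.66 and 7.68 in nLung and 7.96, 7.67 and 8.09 in KP(l). KP(l) replicate 2 lay within the nLung range for Ifnar1, and its log2 fold change was 0.35 (SE 0.14, limma unadjusted p = 0.0415 and adjusted p = 0.912), with an unadjusted p of up to 0.136 when 1 array was left out. Irf9, a part of the interferon-activated factor ISGF3, had the most negative value of the list, -1.31 (SE 0.70, limma adjusted p = 0.912), with 3.59 in KP(l) replicate 1, 6.17 and 6.69 in the other KP(l) arrays and 6.69 to 7.01 in nLung.

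Transcriptional regulators of TAM genes, among them nuclear receptors that raise Mertk and Axl in macrophages, held 10 measured genes of 11 listed, with a median of -0.10. Ppard, a lipid-sensing nuclear receptor, measured 4.25, 3.91, 4.42 and 4.57 in nLung and 4.83, 5.46 and 4.67 in KP(l). Every KP(l) array was above every nLung array for Ppard, and the log2 fold change was 0.70 (SE 0.24, limma unadjusted p = 0.0229 and adjusted p = 0.912), with 1.06 for replicates 1 and 2 and 0.17 for the remaining 3 arrays. Without KP(l) replicate 2, the highest array, it was 0.46 with an unadjusted p of 0.0649 in limma. Rxrb, a partner of such receptors, measured 5.44, 5.50, 5.62 and 5.81 in nLung and 5.02, 4.87 and 5.44 in KP(l). The groups met at a shared value, that of KP(l) replicate 3 and of nLung replicate 1, the lowest nLung array. The log2 fold change of Rxrb was -0.48 (SE 0.16, limma unadjusted p = 0.0235 and adjusted p = 0.912), with an unadjusted p of up to 0.0822 when 1 array was left out. Fosl1, a subunit of AP-1, lay at 2.81 to 2.90 in KP(l) and at 2.92 to 3.36 in nLung, where replicate 3 stood apart, and its log2 fold change was -0.19 (SE 0.13, limma adjusted p = 0.912), or -0.08 without that array.

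**Figure D4:**
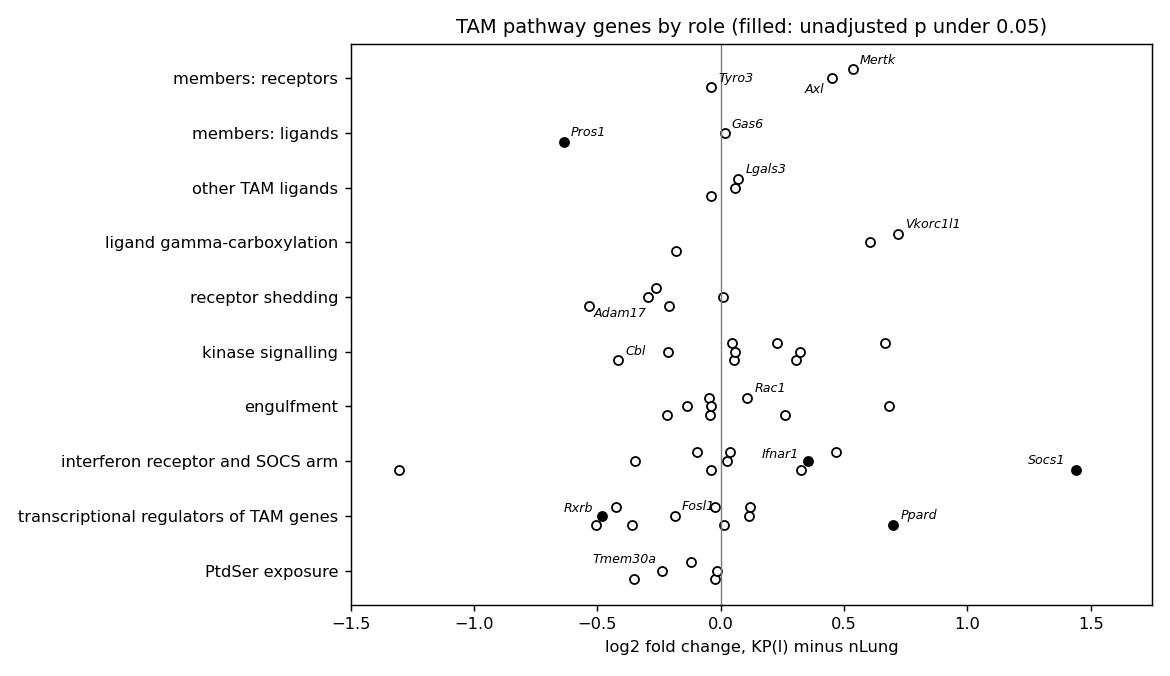
Log2 fold change, KP(l) minus nLung, of each measured gene of the TAM axis by role, 1 point per gene. Filled points have an unadjusted p under 0.05 in limma, which holds for Pros1, Socs1, Ifnar1, Ppard and Rxrb, and 0 genes passed when adjusted over all probe sets.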

How the data were processed

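Expression was measured on 7 arrays, each a pool of lungs. The deposited values are log2 expression from RMA, which the authors ran with affy (Bioconductor 3.5, R 3.4.2) on the Entrez definition file 22.0.0 of BrainArray. Labelling is described differently in the study's methods (3′IVT) and the sample labels (NuGEN amplification). Of 25428 probe sets, 24703 had a single symbol, shared with no other probe set, in the platform annotation or the gene table. All probe sets were kept, and no background level was subtracted.

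The groups were tested with lmFit and eBayes of limma 3.58.1 in R 4.3.3, and Benjamini-Hochberg adjustment covered every probe set. SAM was written anew after the study's methods, with every assignment of the 7 arrays and a fudge factor s0 of 0.0484. Scripts were tested on simulated data. Genes of 8 pathway lists and 12 marker lists were read from the same fit, and listed genes without a named probe set were not analysed here. Named were all members, from each pathway list the genes with an unadjusted p under 0.05 or without overlap and otherwise the one with the highest mean, 3 genes most like each member among those above the median mean and with at least 50% of its SD, and Timd4. Vkorc1, Irf9, Timp3, Cd68, Plin2, Cdh5, Ccr2, Sftpc, Cd207, Clec9a and Itgae were named after their values were seen. Members and lists were chosen with earlier results of these data known. The alternatives were an intensity trend, array weights, another quantile normalization, median centring, a filter on low means, leaving out each array, the replicate number or the array set as a block, no fold threshold, SAM and the ratio of mean linear values. Leaving out replicate 1 of both groups, and each marker sum without its highest marker, were chosen after seeing the data. The labels call the replicates biological, and p-values measure the spread between these pools of mice. The number of arrays limits the precision.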

Additional observations from a re-analysis of the deposited data

Results flagged for a closer look

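Of 16 genes examined for an array far from the others of its group, 1 was found. Fosl1 in nLung replicate 3 measured 3.36 on the log2 scale, and the other 3 nLung arrays lay at 2.92 to 2.93, so that the gap to the nearest of them was 0.991 of the group's range, past the critical value of Dixon's test for 4 arrays. Chance flags about 1 in 20 groups where values spread normally. For Fosl1, nLung replicates 2 and 4 had the same value, so the spread among these arrays does not show the error of the measurement. The mean of Fosl1 over the 7 arrays lay at percentile 35.1 of all probe sets.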

How the results depend on the processing

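With 7 arrays, 0 members and 0 probe sets were called in limma or SAM under every alternative that was run. Members with an unadjusted p under 0.05 numbered 0 to 2 with 1 array left out, and 1 under each other alternative with a limma p. The count was 0 without KP(l) replicate 3, which lost Pros1, and 2 without nLung replicate 3, which added Axl. Probe sets with an unadjusted p under 0.05 numbered 785 among those above the median mean, where fewer were tested, against 1236, and 970 to 1815 with 1 array left out. Tyro3 lies below the median mean and has no value there.

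Of 94 alternative values for members, 8 had the opposite sign. Mertk was -0.023 without KP(l) replicate 1 and ranged up to 0.87 with 1 array left out. Gas6 was -0.0093 after a further quantile normalization, -0.0019 with median centring, -0.030 without nLung replicate 4, -0.020 without KP(l) replicate 2, -0.030 with the replicate block, -0.0037 with the array set as a block and -0.045 within replicates 1 and 2, and ranged up to 0.074 with 1 array left out. Of 227 values for the other named genes, 6 had the opposite sign. Lgals3 was -0.01 without nLung replicate 3, -0.10 without KP(l) replicate 1, -0.087 without both replicates 1 and -0.35 among nLung replicates 3 and 4 and KP(l) replicate 3, and ranged up to 0.27 with 1 array left out. Rac1 was -0.0055 without nLung replicate 2 and -0.0032 without KP(l) replicate 2, and reached 0.31 without both replicates 1. The causes were not tested. The lowest adjusted p or q of a member in any alternative was 0.552.

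Same-numbered arrays of both groups had deviations that correlated at 0.078, 0.023 and 0.19, and 3 of 6 arrays correlated best with their own number. With so few arrays this check cannot decide whether the numbers pair the arrays. With the replicate number as a block, 0 members and 0 probe sets were called, 1307 probe sets had an unadjusted p under 0.05, and Pros1 was -0.64 with a limma p of 0.0356.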
